A study of Mus musculus with 1536 samples.

Results

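The genes described here are 7 genes of the nuclear receptor families and of hormone binding: Rora and Rorb of the Ror family, Nr2f1 and Nr2f2 of the COUP-TF family, the retinoid receptors Rxrg and Rarb, and Crym, a thyroid hormone binding protein. They were taken by name from a list that was chosen with earlier results of these data known. All 7 were among the 53263 genes in the count table and had at least 1 read in a cell. Their levels were measured by Smart-seq2, which reads the whole length of the transcripts of 1 cell per well, in 999 sorted serotonin neurons of the mouse dorsal raphe (DR) and median raphe (MR). The cells came from C57BL/6J mice of 40 to 45 days of 1 genotype in both groups, labelled Sert-tdTomato-Cre crossed to Ai14, in which Cre driven from the serotonin transporter gene turns on a tdTomato reporter, so that only cells with the reporter were sorted. In 1 group, 290 cells on 5 plates came from a dissection of the principal DR (pDR). In the other, 709 cells on 11 plates came from a dissection of all DR, which by the study's design also took in the MR and the caudal DR. The labels name no animal, so each dissection was 1 sample, no p-value was computed, and the spread between plates, which may be technical, was the only error available.

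Ror receptors bind DNA as monomers and drive transcription at elements that they share with the Rev-erb repressors of the circadian clock. COUP-TF receptors are orphan receptors that mostly repress, and in the developing brain they set regional and subtype identity. Retinoic acid acts through Rar receptors, which bind DNA as partners of the Rxr receptors, and the Rxr receptors also pair with thyroid hormone receptors. Crym holds thyroid hormone in the cytoplasm. The members were compared among cells with and without a read of 6 genes that vary among serotonin neurons. These were Crhr2, a receptor of the corticotropin releasing factor family, Gal, the neuropeptide galanin, Trh, thyrotropin-releasing hormone, Slc17a8, the vesicular glutamate transporter VGLUT3, and the transcription factor genes Irx2 and Zeb2.

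Cells held a median of 827283 reads, with a range of 96834 to 2780443, and the medians were 755925.5 in pDR cells and 869546 in all DR cells. Plates held 27 to 93 cells. Tph2, which makes serotonin, and Fev, a transcription factor of serotonin neurons, had a read in all 999 cells. Levels are given in CPM, reads of a gene scaled to a common total per cell, and intervals on shares of cells are exact 95% Clopper-Pearson intervals, which cover counting error only. A difference between dissections was called when the mean of the plate means, plus 1 CPM, differed at least 2-fold. A difference by marker was called when the same held between cells with and without a read on the same plates, with 1 sign on at least 80% of the plates.

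Compared with length taken into account, the order of the members differed between the dissections. In pDR cells Crym was highest at 5.94 ± 1.52 CPM per kilobase of exon (SD over 5 plates), followed by Rora at 2.55 ± 0.193, Rxrg at 1.92 ± 0.81, Rorb at 1.26 ± 0.442 and Nr2f2 at 1.13 ± 0.293. Of these, Crym stood above the next member by more than the spread between plates, whereas Rora and Rxrg lay within 1 SD of each other, as did Rorb and Nr2f2. In all DR cells Nr2f2 was highest at 7.41 ± 3.99 CPM per kilobase (SD over 11 plates), and Crym, Rorb and Rxrg followed within its spread at 4.68 ± 1.46, 4.31 ± 1.71 and 3.84 ± 1.07. Rora was lower at 2.20 ± 0.344 and Nr2f1 at 1.26 ± 0.86. Nr2f1 in pDR cells, at 0.0737 ± 0.025 CPM per kilobase, and Rarb in both dissections, at 0.0901 ± 0.117 and 0.0129 ± 0.0185, were near 0.

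Between the dissections, 3 of the 6 members tested were called lower in pDR cells and none higher. They were Rorb, Nr2f1 and Nr2f2, the same 3 whose plate means did not overlap between dissections. Over all 12834 genes with a mean of at least 1 CPM, 2.12% were called lower in pDR cells and 3.39% higher, while 4.92% had every pDR plate below every all DR plate and 4.18% the reverse. The median log2 difference was -1.28 over the 6 members and -0.02 over all genes tested. Rarb had a mean under 1 CPM and was not tested.

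**Figure D1:**
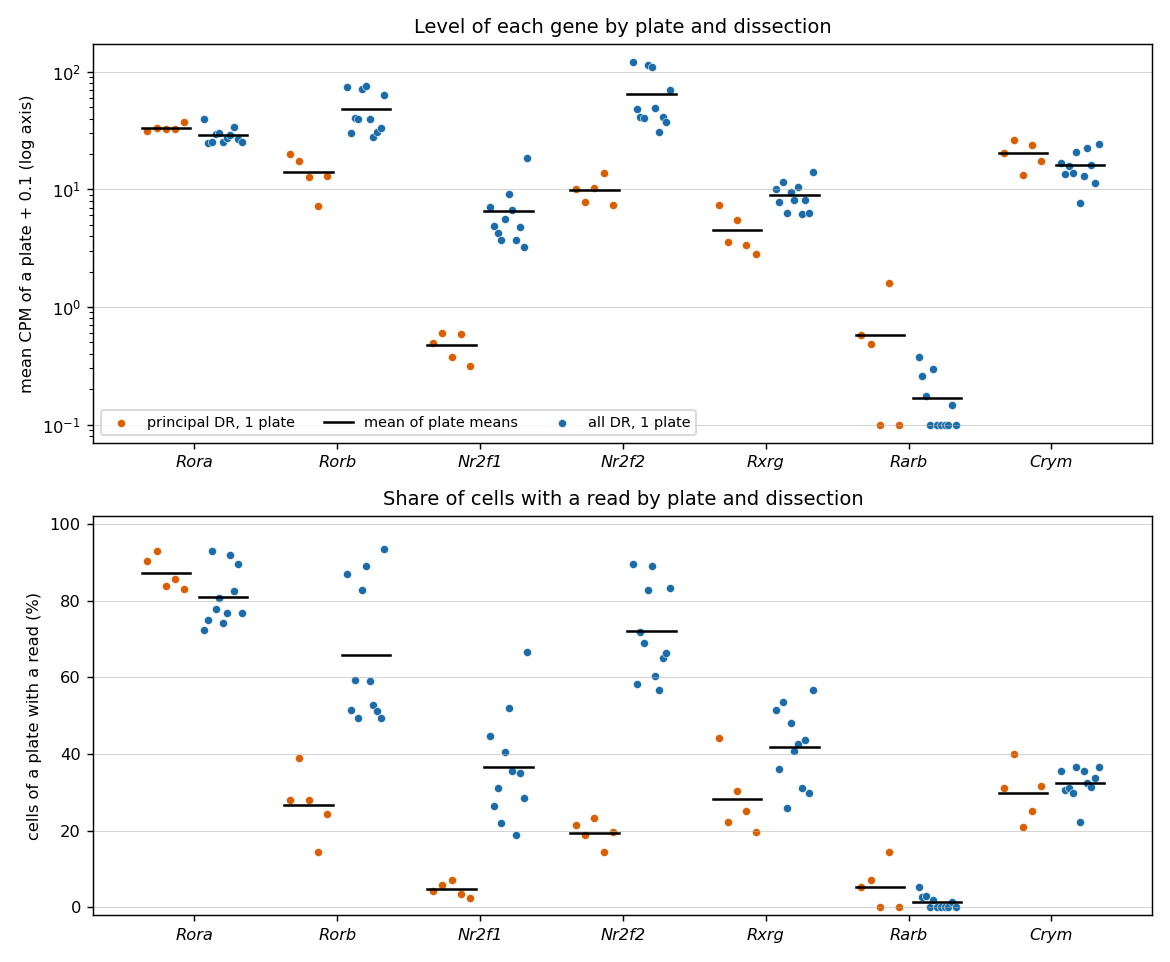
Mean CPM of each member per plate, plus 0.1 and on a log axis (top), and share of a plate's cells with a read in percent (bottom), with points for plates of pDR (orange) and all DR (blue) and black lines for the mean over plates. In both panels the pDR points of Rorb, Nr2f1 and Nr2f2 lie below all of the all DR points, and those of Rora, Rxrg, Rarb and Crym overlap them.

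The Ror family member Rora (chr9:68653786-69388246, plus strand, GRCm38) was the most widely detected of the 7 genes. A read was found in 257 of 290 pDR cells (88.6%, 84.4 to 92.0) and in 579 of 709 all DR cells (81.7%, 78.6 to 84.5). The pDR plates gave 31.0, 32.8, 32.5, 32.6 and 37.6 CPM, and the all DR plates a lowest of 24.6, a median of 27.0 and a highest of 39.6 CPM. The groups of plates overlapped, and the log2 difference was 0.21. The highest all DR plate rested on 1 cell with 1558 CPM of Rora, from 188 of its 120692 reads, and without that cell the plate's mean was 19.3 CPM and the log2 difference between dissections 0.30.

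Rorb (chr19:18930605-19111196, minus strand), its paralog, had a read in 85 pDR cells (29.3%, 24.1 to 34.9) and in 439 all DR cells (61.9%, 58.2 to 65.5). With every cell thinned to 250000 reads the shares were 25.9% and 58.5%. The pDR plates gave 19.7, 17.5, 12.7, 7.05 and 12.9 CPM, and the all DR plates a lowest of 27.6, a median of 39.9 and a highest of 74.9 CPM. No pDR plate reached the lowest all DR plate, and the log2 difference was -1.70.

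The COUP-TF genes had the largest differences between the dissections among the members. Nr2f2 (COUP-TFII, chr7:70351944-70366735, minus strand) had a read in 58 pDR cells (20%, 15.5 to 25.1) and in 495 all DR cells (69.8%, 66.3 to 73.2), and thinning gave 19.7% and 68.2%. The pDR plates gave 9.88, 7.73, 10.1, 13.7 and 7.32 CPM, against a lowest of 30.7, a median of 48.5 and a highest of 120.6 CPM on all DR plates. The 2 sets of plates were separate, with a log2 difference of -2.60.

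Nr2f1 (COUP-TFI, chr13:78188973-78199757, minus strand) was rarer, with a read in 14 pDR cells (4.83%, 2.66 to 7.97) and 237 all DR cells (33.4%, 30.0 to 37.0). The pDR plates gave 0.396, 0.503, 0.275, 0.487 and 0.217 CPM, and the all DR plates a lowest of 3.1, a median of 4.8 and a highest of 18.5 CPM. Here too every pDR plate was below every all DR plate, and the log2 difference was -2.43. Nr2f1 shares 123 exon bases with the antisense gene A830082K12Rik, which was listed with 674 reads, 20.0% as many as Nr2f1, and had a read in 78 cells, of which 44 also had a read of Nr2f1. Nr2f2 shares 643 exon bases with B130024G19Rik, whose reads came to 3.83% of those of Nr2f2. Counting ignored strand, and a read wholly in shared bases went to neither gene.

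Among all DR plates, the 4 with the highest share of cells with a Zeb2 read, from 23.3% to 57.9% of cells against 10% to 16.2% on the other 7 plates, were also the 4 with the highest Rorb and the 4 with the highest Nr2f2. On those 4 plates Rorb ranged from 63.8 to 74.9 CPM and Nr2f2 from 70.4 to 120.6 CPM, and on the other 7 plates Rorb ranged from 27.6 to 40.0 CPM and Nr2f2 from 30.7 to 48.7 CPM. Within plates, however, Rorb was not higher in the cells with Zeb2. It averaged 43.8 CPM with a Zeb2 read and 49.6 CPM without, lower on 8 of 11 plates with a log2 difference of -0.18. In the cells with no read of Zeb2 or Irx2, 277 of pDR and 413 of all DR, the log2 differences between dissections were -1.92 for Rorb, -1.95 for Nr2f1 and -1.69 for Nr2f2. The plates of the 2 dissections did not overlap for any of the 3 genes in those cells, and Nr2f2 gave 6.16 to 13.7 CPM on pDR plates and 16.3 to 49.4 CPM on all DR plates. The difference in Nr2f2 was thus smaller without Zeb2 or Irx2 cells but still above 2-fold.

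The retinoid receptor Rxrg (chr1:167598384-167639623, plus strand), a partner in receptor pairs, had a read in 88 pDR cells (30.3%, 25.1 to 36.0) and 288 all DR cells (40.6%, 37.0 to 44.3). The pDR plates gave 7.2, 3.45, 5.41, 3.24 and 2.74 CPM and the all DR plates a lowest of 6.1, a median of 8.06 and a highest of 13.9 CPM. The highest pDR plate lay above the lowest all DR plates, and the log2 difference of -0.86 was not called. Rarb (chr14:16430839-16819156, minus strand), the retinoic acid receptor gene that retinoic acid itself induces in many tissues, had a read in 15 pDR cells (5.17%, 2.92 to 8.39) and in 10 all DR cells (1.41%, 0.678 to 2.58). Its pDR plates gave 0.48, 0.386, 0, 1.51 and 0 CPM and its all DR plates 0 to 0.272 CPM. Rarb shares 1793 exon bases with Top2b on the other strand, which had 29711 reads, and a read that lay wholly in those bases was counted for neither gene.

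The promoters of the members were read for the letters that these receptors bind, since receptors of this group may act on each other's genes and on Trh. Promoter sequences from RefSeq (GRCm38.p6) matched 6 of the 7 members, all but Crym, and the 250 bases before each start were searched on both strands for AGGTCA, the core of Ror, Rar and thyroid hormone receptor elements, and for 2 copies of GTTCA in 1 direction with 6 bases between them. AGGTCA was found in 14.0% of 32851 promoters and the GTTCA pair in 0.067%. Among the members AGGTCA was found in Rxrg, at chr1:167618137-167618222 on the plus strand, and the GTTCA pair in Rarb, at chr14:16575477-16575568 on the minus strand. Of the 6 marker genes only Trh was read for matches. AGGTCA lay in it, on the reverse strand of chr6:92244662-92244747. The 3 stretches are shown 5′ to 3′ along the gene's strand, with the matches in capitals.
Rxrg: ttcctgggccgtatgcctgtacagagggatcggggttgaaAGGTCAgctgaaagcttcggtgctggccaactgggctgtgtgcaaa
Rarb: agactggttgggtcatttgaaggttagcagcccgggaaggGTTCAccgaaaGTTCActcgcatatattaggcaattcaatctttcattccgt
Trh: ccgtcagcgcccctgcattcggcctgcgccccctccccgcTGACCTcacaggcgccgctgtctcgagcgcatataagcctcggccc
The matches lay 88 bases before a start of Rxrg, 52 before that of Rarb and 57 before that of Trh. Some members had more than 1 start, with 9 promoters for the 6 members. The start of Rxrg with the match lies inside the gene, and the promoter at its first start (chr1:167598112-167598411) had 0 matches. A match is a description of the letters and was not tested as a site.

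Crym (chr7:120186380-120202111, minus strand), the thyroid hormone binding protein, had a read in 92 pDR cells (31.7%, 26.4 to 37.4) and 231 all DR cells (32.6%, 29.1 to 36.2). The pDR plates gave 20.3, 26.1, 13.1, 23.7 and 17.4 CPM, and the all DR plates a lowest of 7.51, a median of 15.8 and a highest of 24.0 CPM. The plates overlapped and the log2 difference was 0.33, so that neither the level nor the share of cells set the dissections apart.

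Within plates, cells with a read of Crhr2 held more Rorb. Of the 6 members tested, Rorb alone was called higher and none lower, against 0.53% of all genes called higher and 0.834% lower. Rorb averaged 58.2 CPM in the cells with a read and 24.4 CPM in those without, was higher in the former on 16 of 16 plates, and had a log2 difference of 1.22. Rxrg, at 9.68 and 5.98 CPM, was higher on 15 of 16 plates without reaching 2-fold, and Rora, at 24.2 and 33.9 CPM, was lower on 15 plates, also under 2-fold. On pDR plates alone 4 members were called, Rorb, Nr2f2 and Rxrg higher and Crym lower. Of all 12833 genes tested in that setting, 116 were called higher and 190 lower, more than over all plates (68 and 107). There Rxrg averaged 7.37 CPM with Crhr2 and 2.12 CPM without, higher on 5 of 5 plates with a log2 difference of 1.42 (0.43 on all DR plates), and Crym 11.4 and 25.4 CPM, lower on 4 of 5. The 406 cells with a read of Crhr2 also held more genes than the other 593, a median of 9867 against 9204 over plates and more on 16 of 16, and the part of depth in these values was not tested beyond thinning. With cells thinned to equal reads, Rxrg was detected in 48.2% of the cells with a read of Crhr2 and 27.0% of the others, higher on 16 of 16 plates.

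Over all cells of a dissection, the mean level of Nr2f2 differed by Crhr2 in opposite directions in the 2 dissections. On the 5 pDR plates Nr2f2 averaged 25.7 CPM in cells with a read of Crhr2 and 2.45 CPM in those without, a log2 difference of 2.95 that was positive on 5 of 5 plates and ranged from 0.91 to 5.34. On the 11 all DR plates the means were 47.7 and 71.5 CPM, and the log2 difference of -0.57 was negative on 9 plates and ranged from -1.29 to 0.33. Over the 16 plates together the log2 difference was -0.28. The plate ranges of the 2 dissections did not overlap, but the difference between dissections was not tested. In share of cells, Nr2f2 was higher with Crhr2 on 15 of 16 plates, with a read in 70.9% against 45.3% of cells. Thinned to equal depth the shares were 69.7% and 44.1%, higher on 15 of 16 plates. In all DR cells with Zeb2, Irx2 and Trh each under 10 CPM, the mean of Nr2f2 was higher with Crhr2, as in pDR. It was 44.6 CPM with at least 10 CPM of Crhr2 and Gal and 36.3 CPM with Crhr2 alone. With Gal alone it was 21.6 CPM, and with neither 18.0 CPM. The part of the Zeb2 cells in the opposite directions was not tested. For Rorb, the log2 difference by Crhr2 was positive on every plate of both dissections, 3.07 in pDR and 1.02 in all DR.

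Cells with a read of Gal also held more Rorb. It averaged 58.3 CPM in the 361 cells with a read and 26.4 CPM in the 638 without, and was higher with Gal on 16 of 16 plates, with a log2 difference of 1.12. It was again the only 1 of 6 members called, against 0.179% of all genes higher and 0.444% lower. By dissection the log2 difference was 2.35 in pDR and 0.98 in all DR, so that on all DR plates alone the gene fell just short of 2-fold. Crym was higher with Gal on 12 of 16 plates, with a log2 difference of 0.45, and Nr2f2 had a log2 difference of -0.35. The cells with Gal also held more genes, a median of 9877 against 9231 over plates and more on 16 of 16. Thinned to equal depth, Rorb was detected in 56.0% of the cells with Gal and 45.7% of the others, higher on 13 of 16 plates. The part of depth was not tested further.

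By Slc17a8, none of the 6 members was called, where 0.421% of all genes were called higher and 0.382% lower. Rorb averaged 44.3 CPM in cells with a read of the transporter and 24.7 CPM in those without, and Nr2f2 54.7 and 32.1 CPM, and each was higher on 15 of 16 plates. Their log2 differences of 0.82 and 0.75 stayed under the limit. On pDR plates alone, Nr2f2 averaged 20.2 and 1.25 CPM, higher on 5 of 5 plates with a log2 difference of 3.24, and Rorb had a log2 difference of 2.39. Crym went the other way there, at 5.94 CPM with Slc17a8 and 32.4 CPM without, lower on 5 of 5 plates with a log2 difference of -2.27. On all DR plates the corresponding log2 differences were 0.60 for Nr2f2, 0.61 for Rorb and 0.04 for Crym, and the differences between dissections were not tested.

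Irx2 and Zeb2 marked cells of the all DR dissection, and Zeb2 had a read in only 3 of 290 pDR cells. By Irx2 none of the 6 members was called, against 0.475% of all genes higher and 1.5% lower. Nr2f1 came nearest, with 9.88 CPM in cells with a read and 4.85 CPM in cells without, higher on 9 of 12 plates with a log2 difference of 0.90. Rxrg averaged 12.2 and 7.26 CPM and was higher on 10 of 12 plates, with a log2 difference of 0.68.

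By Zeb2, Nr2f2 was called higher and no other member was called. It averaged 153.8 CPM in the 147 all DR cells with a read of Zeb2 and 34.1 CPM in the 562 without, and the within-plate log2 differences ran from 1.43 to 2.92, all 11 of them positive. The log2 difference over plates was 2.14, in a contrast in which 2.07% of all genes were called higher and 5.39% lower. Thinned to equal depth, 97.7% of the cells with Zeb2 had a read of Nr2f2, against 63.8% of those without, higher on 11 of 11 plates. Crym and Rora were lower with Zeb2 on 10 and 9 of 11 plates, with log2 differences of -0.57 and -0.54 that were not called.

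Trh gave the largest number of member calls. Of the 6 members tested, 1 was called higher and 3 lower in cells with a read of Trh, against 1.22% of all genes higher and 1.97% lower. The median log2 difference of the members was -1.06, and that of all genes tested -0.02. Crym averaged 62.3 CPM in the 136 cells with Trh and 9.63 CPM in the 729 without on the same 13 plates, was higher on 12 of 13, and had a log2 difference of 2.57. The exception was 1 all DR plate, with 9.09 CPM with Trh and 11.5 CPM without. Thinned to equal depth, Crym was detected in 61.9% of the cells with Trh and 24.5% of those without, higher on 13 of 13 plates.

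Rorb, Nr2f1 and Nr2f2 were lower with Trh on 13 of 13 plates. Rorb averaged 5.42 CPM with Trh and 35.6 CPM without, a log2 difference of -2.51. Nr2f1 averaged 0.2 and 3.45 CPM, and Nr2f2 11.4 and 44.8 CPM, with a log2 difference of -1.89 for each. The call of Nr2f1 was lost on pDR plates alone (-0.59), with 5 CPM added in place of 1 (-0.70) and with means of ln(CPM + 1), which also ended that of Rorb. Rorb was lower in level, but its share of cells varied between plates and dissections. It had a read in 35.9% of the cells with Trh and 48.7% of those without, lower on 7 of 13 plates. Thinned to equal depth the shares were 28.6% and 45.4%, lower on 9 of 13 plates. In pDR, Rorb had a read in 31.1% of cells with at least 10 CPM of Trh against 28.1% of those without a read of Trh. In all DR these shares were 28.6% and 63.5%. Rora was not among the lower genes, at 38.4 CPM with Trh and 29.0 CPM without, higher on 11 of 13 plates with a log2 difference of 0.39 that was not called.

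In all DR cells, the absence of Nr2f2 was sharper where Trh was high. Of the 125 cells with at least 10 CPM of Trh, none had a read of Nr2f2: 0 of 90 pDR cells, for which the exact interval reaches 4.02%, and 0 of 35 all DR cells, for which it reaches 10.0%. A limit of 3 cells gives 3.33% and 8.57%. In cells without a Trh read, Nr2f2 was found in 30.2% of pDR and 73.4% of all DR cells. The Nr2f2 reads behind the mean with Trh came from all DR cells with a Trh read but under 10 CPM, 5 cells in all, of which 4 held Nr2f2, at a mean of 123.8 CPM over the 5 cells and 154.7 CPM over the 4, and none had a read of Crym. Of the 8 pDR cells with a Trh read under 10 CPM, 0 had a read of Nr2f2, for which the interval reaches 36.9%, and 5 had Crym. Crym had a read in 53 of the 90 pDR cells (58.9%) and in 26 of the 35 all DR cells (74.3%) with at least 10 CPM of Trh.

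**Figure D2:**
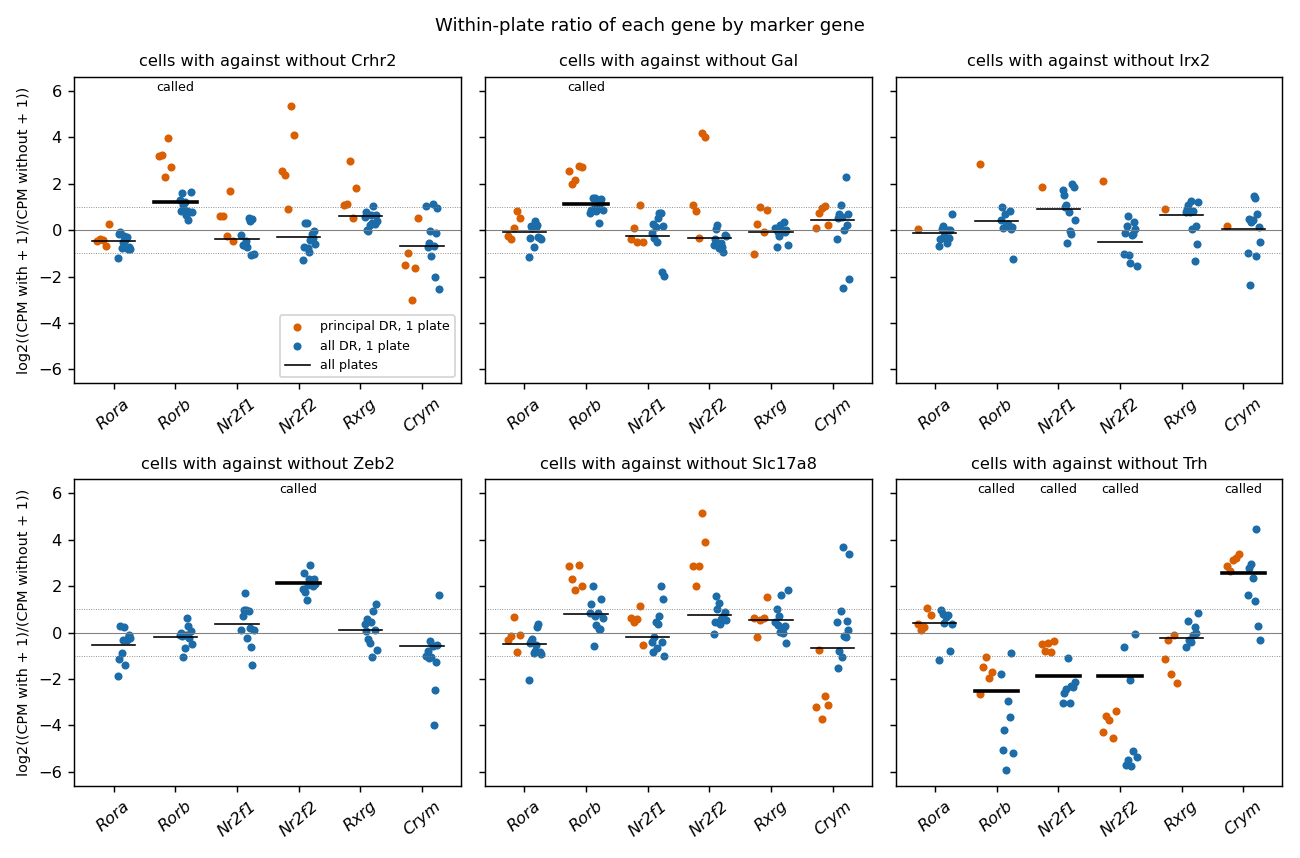
Within-plate log2 difference in mean CPM + 1 of each member between cells with and without a read of each of the 6 markers, with a point per plate (pDR orange, all DR blue), a black bar for the difference over all plates, dotted lines at the 2-fold limit and the word called over members past the rule; Rarb is not drawn. Rorb lies above 0 on all plates by Crhr2 and Gal and below 0 on all plates by Trh, Nr2f2 lies above 0 on all plates by Zeb2, and by Crhr2 the pDR and all DR points of Nr2f2 fall on opposite sides of 0 on most plates.

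The members also described cells sorted by which markers reached 10 CPM, a set of 7 gene profiles that are not named cell types. In the 135 cells with Zeb2 but neither Irx2 nor Trh, every cell had a read of Nr2f2, at a mean of 172.9 CPM and from 89.4 to 229.8 CPM over plates, and 116 had a read of Rorb. Rorb averaged 46.9 CPM over those cells, and Nr2f1 was found in 70 of them at 7.93 CPM. In the 137 Irx2 cells, Nr2f1 was found in 65 at 9.61 CPM and Rxrg in 58 at 13.2 CPM, each the highest mean of its gene over the profiles. In the 124 Trh cells, Rora was found in 119 at 40.5 CPM and Crym in 79 at 60.2 CPM, while Rorb was found in 38 at 4.14 CPM, Nr2f1 in 1 and Nr2f2 in 0.

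Rorb was highest in the 155 cells with both Crhr2 and Gal and none of Zeb2, Irx2 and Trh, with a read in 114 cells and a mean of 84.9 CPM. Cells with Crhr2 and without Gal, 145 in number, had 33.3 CPM of Rorb, and the 40 cells with Gal and without Crhr2 had 14.2 CPM. The 259 cells with none of the 5 genes had 13.0 CPM of Rorb and 12.9 CPM of Nr2f2. Of the Crhr2 profiles, the one with Gal thus held more Rorb, and both held Nr2f2, at 42.7 CPM with Gal and 28.9 CPM without.

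Between dissections, Rorb overlapped within the profile with both Crhr2 and Gal. The 34 pDR cells of that profile averaged 70.7 CPM, with plates from 58.8 to 85.1 CPM, and the 121 all DR cells 88.9 CPM, with plates from 38.8 to 183.6 CPM, so that the plates overlapped. Among them, the 12 pDR and 68 all DR cells with Npy2r under 10 CPM averaged 38.7 and 99.8 CPM, and in the profile with Crhr2 and without Gal, 50 pDR cells averaged 20.7 CPM and 95 all DR cells 40.0 CPM. Nr2f2 averaged 35.7 CPM in the pDR cells and 44.6 CPM in the all DR cells with Crhr2 and Gal. Nr2f1 had a read in 3 of the 34 pDR cells and 34 of the 121 all DR cells, at 0.53 and 3.61 CPM. In the cells with none of the 5 genes, Rorb averaged 2.35 CPM in pDR and 19.3 CPM in all DR, and Nr2f2 4.25 and 18.0 CPM.

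**Figure D3:**
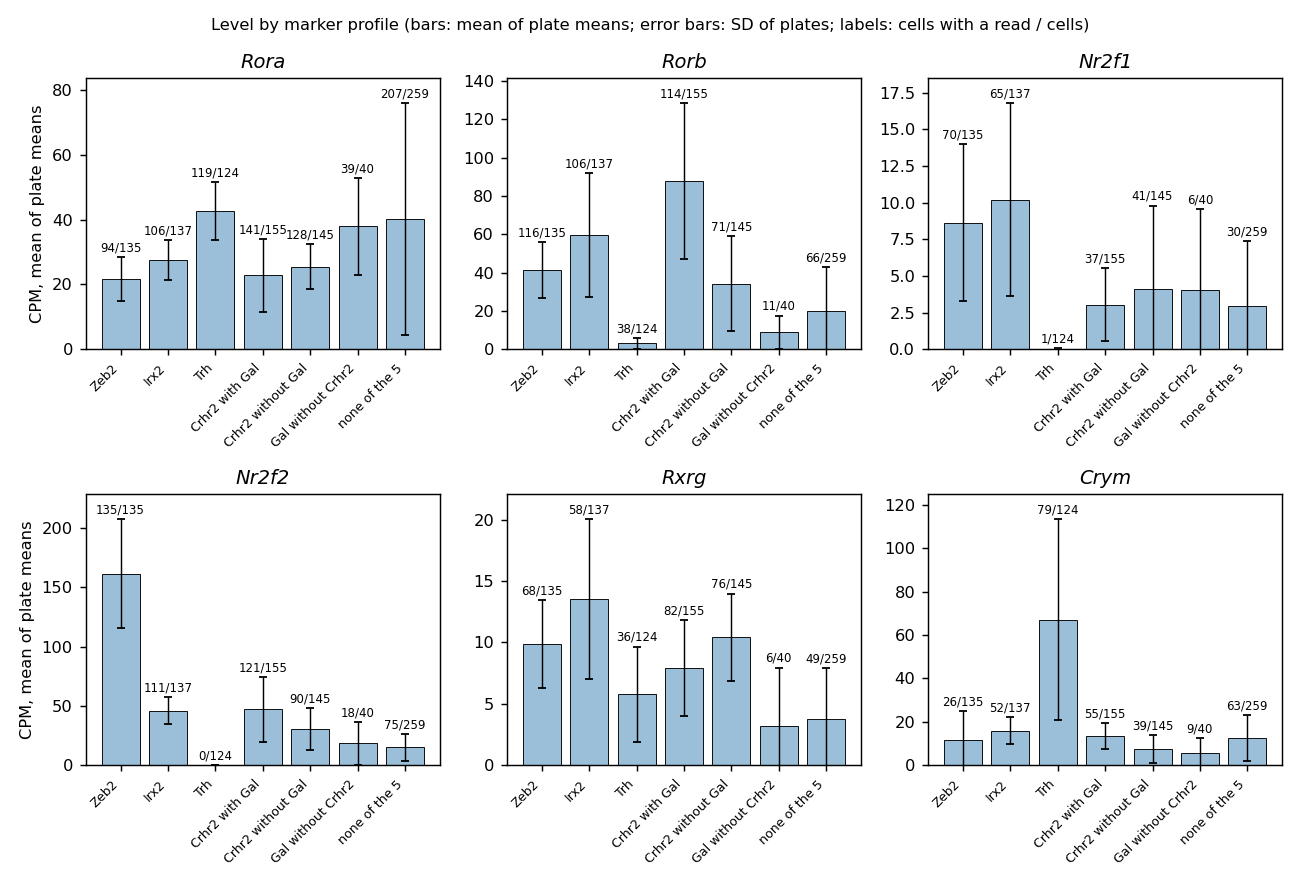
CPM of 6 members in cells grouped by which of Zeb2, Irx2, Trh, Crhr2 and Gal reached 10 CPM, with bars for the mean of plate means, error bars for the SD over plates and, above each bar, cells with a read of the member over cells. Nr2f2 is highest in the Zeb2 profile (161.4 ± 46.1), Rorb in the profile with Crhr2 and Gal (87.8 ± 40.7) and Crym in the Trh profile (67.0 ± 46.4), each with a wide spread over plates.

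Crhr2 cells of the all DR dissection were further split by Npy2r, a neuropeptide Y receptor gene, with a limit of 10 CPM for each of Npy2r and Crhr2 and with Zeb2, Irx2 and Trh below it. On 9 plates, Nr2f2 averaged 27.3 CPM in 97 cells with Npy2r and 55.5 CPM in 108 without, lower on 9 of 9 plates. Crym averaged 7.12 and 16.4 CPM and was lower on 8 of 9 plates, with a log2 difference of -1.10. Rorb, at 60.7 and 81.5 CPM, was lower on 7 of 9 plates with a log2 difference of -0.42. On the 4 pDR plates with enough cells, 52 with Npy2r and 28 without, Nr2f2 averaged 20.0 CPM in both sets. There Rorb averaged 45.5 CPM with Npy2r and 27.6 CPM without, higher on 3 of 4 plates, and Crym 6.55 and 5.06 CPM, higher on 2, so that neither was lower as it was in all DR cells, and the difference between dissections was not tested.

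In single cells the COUP-TF genes and Rorb were found together. The odds ratio of detection, pooled over plates by the Mantel-Haenszel method, was 9.26 for Nr2f1 with Nr2f2, from 231 cells with both, and 8.4 for Rorb with Nr2f2, from 422 cells with both. It was 4.99 for Rorb with Nr2f1. With cells thinned to equal depth the values were 8.12, 8.17 and 4.95. For Rora with Nr2f2 the odds ratio was under 1, at 0.461 and at 0.45 after thinning, from 436 cells with both. These ratios describe pairs of genes in the same cells and libraries and carry no test.

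**Figure D4:**
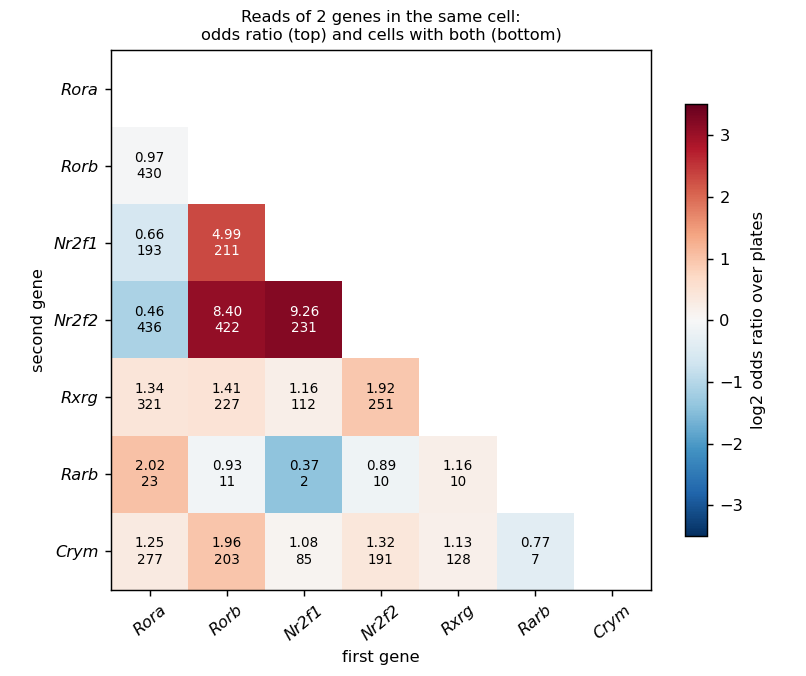
Matrix of the pairs of the 7 members, colored by the log2 of the Mantel-Haenszel odds ratio over plates for a read of both genes in the same cell, with the odds ratio and below it the number of cells with both printed in each square. The ratios of Nr2f1 with Nr2f2 (9.26) and Rorb with Nr2f2 (8.4) are the highest, and that of Rora with Nr2f2 is 0.461.

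The combination of Rorb and Nr2f2 divided the dissections. Both genes had a read in 36 pDR cells (12.4%) and 386 all DR cells (54.4%), and neither had a read in 183 pDR cells (63.1%) and 161 all DR cells (22.7%). Of the pDR cells with both, 94.4% had a read of Crhr2, 88.9% of Slc17a8 and 0 of Trh. Of the 49 pDR cells with Rorb and without Nr2f2, 63.3% had a read of Trh and 57.1% of Crym. Of the 999 cells, 26 had no read of any member, and 29 had a read of 6 members, the most in 1 cell.

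Across the 999 cells, the level of a gene was set beside those of 8086 genes with a mean over 10 CPM by Pearson's r of ln(CPM + 1), centred on plate means, which describes cells that share libraries and depth. The genes most like Nr2f2 were Lpar1, a lysophosphatidic acid receptor gene (r = 0.55), Stxbp6, a syntaxin binding protein gene (0.55), and Rab3b, a synaptic vesicle GTPase gene (0.52), among 15 genes at 0.4 or more. Those most like Rorb were Nr2f2 (0.52), Adcyap1, which encodes the neuropeptide PACAP (0.48), and Atp1b2, a sodium pump subunit gene (0.46), among 4 genes at 0.4 or more. No gene reached 0.4 for Rora, Nr2f1, Rxrg, Rarb or Crym, and the highest value for Crym, 0.38, was with Trh.

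The other genes of these pathways were taken from lists of named genes. Of the 6 retinoid receptors, 4 were tested and none was called in any contrast. Rxrb, the partner receptor most widely detected, had a read in 913 cells at a mean of 26.9 CPM, Rxra in 433 cells at 5.65 CPM and Rara in 260 cells at 1.44 CPM. Rxrb was also the highest of them per kilobase, at 6.01 ± 1.23 CPM in pDR cells and 6.92 ± 0.841 in all DR cells. Of the 17 genes of retinoid synthesis, transport and breakdown, 4 were tested, and only Aldh1a1, which makes retinoic acid, was called, with 1.57 CPM in pDR and 5.18 CPM in all DR cells, a log2 difference of -1.27. That call rested on 1 all DR cell with 1950 CPM, without which the all DR mean was 1.77 CPM and the log2 difference -0.11.

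Of the 9 thyroid hormone genes, 4 were tested, and both calls were higher by Trh, where 1.22% of all genes tested were called higher. Apart from Crym, the thyroid hormone receptor gene Thrb was higher with Trh, at 3.84 CPM against 0.779 CPM, on 11 of 13 plates with a log2 difference of 1.44. Thra, the other receptor gene, had a read in 997 cells at 124.8 CPM.

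Clock genes with Ror elements and their partners were read from 1 list of 10 genes, all tested, which is not a list of Ror targets only. By Zeb2, 2 were called higher and 2 lower, beside 2.07% and 5.39% of all genes tested. Npas2, a partner of Arntl, averaged 7.24 CPM with Zeb2 and 1.22 CPM without, and Dbp, a clock output gene, 47.3 and 16.6 CPM, both higher on 11 of 11 plates. Arntl, the core activator of the clock, averaged 7.46 and 18.0 CPM, lower on 11 of 11 plates, and the repressor Nfil3 7.93 and 18.2 CPM, lower on 10. Nr1d1, which encodes Rev-erb alpha and belongs to the Ror and Rev-erb list, averaged 27.0 and 11.1 CPM, higher on 11 of 11 plates. By Irx2, Npas2 was lower on 11 of 12 plates, with a log2 difference of -1.20, and no gene of the 10 was called by dissection, Crhr2, Gal, Slc17a8 or Trh.

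Of the 11 coregulators, 10 were tested. Bcl11b and Bcl11a, whose proteins bind COUP-TF receptors, were the most often called. Bcl11b averaged 43.5 CPM with Zeb2 and 1.35 CPM without, higher on 11 of 11 plates with a log2 difference of 4.24, and was called lower with Irx2 and with Crhr2, with log2 differences of -3.64 and -3.58. It was lower in pDR cells, at 2.52 against 13.0 CPM. Bcl11a was higher in pDR cells, at 10.1 against 2.05 CPM, and higher with Trh, at 12.3 against 2.95 CPM on 12 of 13 plates. Nr2f2 and Bcl11b were therefore both higher in the cells with Zeb2, and Bcl11a was higher and Nr2f2 lower in those with Trh. Ncoa3, a coactivator gene, was higher in pDR cells at 35.8 against 13.8 CPM, and Nrip1 and Bcl11a were lower with Zeb2, each with a log2 difference of -1.78.

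Markers of other cell types moved with some of these contrasts. The summed level of 6 oligodendrocyte genes ranged from 71.3 to 190.2 CPM over pDR plates and from 119 to 1658 CPM over all DR plates, and 4 of the 5 tested, Mbp, Mag and Mobp among them, were called lower in pDR cells. It was also lower in cells with Crhr2, at 117.6 against 322.6 CPM, and with Gal, at 128.4 against 315.5 CPM, but higher on 1 and 4 of 16 plates. With Slc17a8 it averaged 155.1 against 495.3 CPM and with Trh 144.5 against 261.6 CPM, yet it was higher on 8 of 16 and 8 of 13 plates. A single all DR cell held 61350 CPM of Mbp, 46.4% of the Mbp reads of that dissection. Mbp was called lower by Crhr2, Gal and Trh, and the part of such RNA in the member differences was not tested. The summed level of 6 astrocyte genes was higher in cells with a read of Rorb, a gene that astrocytes also express, at 32.9 against 12.2 CPM and on 15 of 15 plates, and lower in cells with Trh, at 7.64 against 26.1 CPM on all 13 plates. Most of that sum was 1 gene, Slc1a2, at a mean of 17.9 CPM over all cells. Per kilobase of exon it had 1.37 CPM, and Gja1, the next of the 6, 0.179. The r of Slc1a2 with Rorb was 0.34, and it was the astrocyte gene called lower with Trh. The mean of the sum was near equal by Crhr2, at 23.2 CPM with and without, and by Gal, at 23.3 and 23.4 CPM. It was higher with the marker, however, on 13 and 11 of 16 plates. With Slc17a8 it averaged 24.2 against 27.5 CPM and was higher on 14 of 16 plates. The median log2 difference of the 3 astrocyte genes tested was -1.21 by Crhr2, -1.12 by Gal and -1.17 by Slc17a8. The part of astrocyte RNA in the Rorb differences was not tested. No gene of the microglia, endothelial or other neuron lists reached a mean of 1 CPM, and none of the 7 serotonin neuron genes was called in any contrast.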

How the data were processed

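The authors sorted tdTomato-positive cells, prepared Smart-seq2 libraries and deposited 1 table of CPM values (reads per gene scaled to a common total) per gene and cell. Per the submitters' processing notes, reads were split with bcl2fastq 2.19.0.316, aligned with STAR 2.6.1a to mm10 (GRCm38) and counted with HTSeq 0.11.2. The study's methods give unstranded counting in the mode that drops reads lying wholly in bases of more than 1 gene, and removal of genes on the Y chromosome. The annotation version is not given in the sources used here, and no molecular identifiers were used. Of 1536 labelled cells, 999 had a column, and the other 537 were not analysed here. Whole reads were recovered from the CPM steps for 100% of values, within 0.001 of a whole number. No count test was run on them, because each dissection was 1 sample. All 999 cells passed the study's minimums of 50000 reads and 300 genes, and 9 under 250000 reads were left out of thinned values.

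Contrasts were ratios of means with 1 CPM added, each plate weighted equally, and within-plate contrasts needed at least 3 cells in each set. Log2 differences near the added count understate changes in low genes. The calls were run on simulated data with 200 genes of at least 10 CPM changed by more than the 2-fold limit. That run had no differences between plates, and its marker sets were drawn at random. It therefore cannot show how the calls do for lower genes, changes near the limit or plates that differ. Exon lengths, coordinates and overlaps came from GENCODE M21 (GRCm38). Work was done in Python 3.11.15 with numpy 2.4.6, pandas 2.3.3 and scipy 1.17.1. The members and lists were chosen with earlier results of these data known. Besides the members and the marker genes, the text names list genes called in a contrast, at most 5 a list, and the 3 most correlated genes at r of 0.4 or more; Rxrb, Rxra, Rara, Thra and the antisense or overlapping genes were named outside that rule, after their values were seen. The alternatives were other pseudocounts, ln means, a read minimum, a detection limit, single dissections and leaving out each plate. Values of some list genes are not reported here.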

Additional observations from a re-analysis of the deposited data

How the results depend on the processing

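Between dissections, 3 members were called under every alternative run, and Rxrg was called as well only without the pDR plate SER12 (log2 difference -1.06). No value of a member changed sign after being called. By Crhr2, 1 member was called, against 2 with ln(CPM + 1) means, which added Nr2f2 as higher with Crhr2, and 4 on pDR plates only. By Gal, 1 was called, against 0 on all DR plates only and 2 on pDR plates only. By Irx2, 0 were called, against 1 with ln means, Rorb. By Zeb2, 1 was called, and leaving out each plate in turn gave 1 to 2, the second being Crym without plate SER67 (-1.14). By Slc17a8, 0 were called, against 1 at a minimum of 500000 reads (Rorb), 1 with ln means (Nr2f2) and 3 on pDR plates only. By Trh, 4 were called, against 2 with ln means, which lost Rorb and Nr2f1, and Nr2f1 was also lost with a pseudocount of 5 and on pDR plates only. More of all 12833 genes were called on pDR plates only. There, genes higher and lower numbered 116 and 190 by Crhr2, against 68 and 107 over all plates, and 49 and 89 by Gal, against 23 and 57. By Slc17a8 they numbered 214 and 165, against 54 and 49, and by Trh 218 and 295, against 156 and 253. The genes with r of 0.4 or more to a member numbered 19, and 58 without centring on plates. The pDR-only settings, the Rora and Aldh1a1 values without their highest cells and the cells without Zeb2 or Irx2 were chosen after seeing the data. The causes were not tested. Of the values of single members, 1436 stayed within the spread between plates and 56 moved beyond it.

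A pseudocount of 5 lowered the count of all genes called between dissections from 435 to 206 higher and from 272 to 89 lower in pDR cells. Between dissections no paired analysis was possible, because each cell is its own sample, the 2 dissections share no replicate, and no animal is named. The marker contrasts compared cells on the same plate. Cells without a read may express a gene below what 827283 reads, the median, can show, and which animal each cell came from is not labelled, which limits every comparison.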
